A study of Rattus norvegicus with 6 samples.

Results

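Mitochondrial ribosomal protein genes were taken as the symbols that begin with Mrpl or Mrps followed by a digit. Of 21857 symbols in the count files, 75 matched, and 71 of these had at least 10 counts in at least 3 of the 6 libraries. The other 4 matches were Mrpl1, with 3 to 10 counts per library, Mrps21l, with 0 or 1 count, and Mrpl53 and Mrpl36, which were listed at 0 in every library. All 71 kept genes were among the 12941 genes tested.

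The cells were NRCFs (neonatal rat cardiac fibroblasts), grown in primary culture from the hearts of newborns. The design text gives the strain as Sprague-Dawley, whereas the strain label reads Noway, and RNA was measured by RNA-seq. The Vector group of 3 libraries (genotype label WT) received the empty plasmid, and the other 3 libraries (genotype label FTO overexpression) came from cells transfected with a plasmid for FTO, an enzyme that removes N6-methyladenosine from RNA. All cells were transfected, and the sources do not say whether these cultures were kept in hypoxia. The labels do not say whether replicates were separate cultures, so each p-value measures the spread between these libraries only, which may be technical.

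Mitochondria carry their own ribosome, the mitoribosome, which translates the few mRNAs encoded by mitochondrial DNA (mtDNA) into core subunits of the respiratory chain and ATP synthase. Its ribosomal RNAs come from mtDNA, whereas every one of its proteins is encoded in the nucleus, made in the cytosol and imported. Some of these proteins have counterparts in bacterial ribosomes, and others were added during the evolution of mitochondria. In heart tissue the respiratory chain supplies most of the ATP used for contraction.

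The libraries held 13178952 to 17857999 counted reads. Fto itself was at 88.3 ± 1.2 CPM (counts scaled to a common library size) in Vector and 92.3 ± 1.32 in the libraries labelled FTO (mean ± SD of 3 libraries here and below), a log2 fold change of 0.06 with a 95% interval of the fold from 0.976 to 1.12. The difference did not pass (adjusted p = 0.239, edgeR quasi-likelihood test), although the libraries labelled FTO, at 90.8 to 93.2 CPM, all lay above those of Vector, at 87.4 to 89.6 CPM. Scaled to cytosolic ribosomal protein counts, which moved the median of all genes by 0.15, the log2 fold change of Fto was 0.22 and passed (adjusted p = 6.9e-03). Directions below are those of the libraries labelled FTO over Vector. Markers of several cell types moved with the group. Of 10 fibroblast markers, 5 were higher and 5 lower, and their summed level was 41419 to 42004 CPM in Vector and 21577 to 22559 in the libraries labelled FTO. Col1a1, Col3a1 and Vim were highest in Vector and fell, from means of 25809, 10699 and 3161 CPM to 8268, 3338 and 1250. Dcn, Lum and Pdgfra rose, from means of 47.0, 48.7 and 173 CPM to 5611, 432 and 976. Thy1 and Postn also rose, whereas Ddr2 and Tcf21 also fell. Their median log2 fold change was 0.06, so this sum does not describe all 10 markers alike. Of 9 tested cardiomyocyte markers, 8 were higher and Tnnt2 was lower, with sums of 1766 to 1803 and 2783 to 2887 CPM, and Mb had 1 to 12 counts per library. Of 12 macrophage markers, 11 were lower, with sums over the 12 of 1746 to 1809 and 252 to 286 CPM. The other, Adgre1, was higher, with means of 6.81 CPM in Vector and 31.7 CPM in the libraries labelled FTO. Of 5 tested endothelial markers, 3 were higher and 1 lower, with sums of 23.5 to 25.2 and 45.3 to 46.7 CPM, Emcn was at 0 in Vector and Vwf had 4 to 13 counts. The part of these cells in the results below was not tested, and in bulk RNA fewer cells of a type and less RNA per cell cannot be told apart.

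Most mitochondrial ribosomal protein genes were slightly higher in the libraries labelled FTO. Of the 71, 40 rose and 3 fell by the edgeR quasi-likelihood test (adjusted p under 0.05), and 28 did not pass. In all, 60.6% passed, where 65.9% of all tested genes did. The direction was uneven, as 56.3% of the family rose and 4.23% fell, against 33.2% and 32.8% of all tested genes. The log2 fold change was above 0 in 64 of the 71 (90.1%), against 50.1% of all tested genes. Its median was 0.20 with quartiles of 0.12 and 0.43, where all tested genes had a median of 0.00 with quartiles of -0.36 and 0.36. The individual changes were small. At least a 1.5-fold change in either direction was measured for 6 members (8.45%), against 33.5% of all tested genes. One log2 unit with an unadjusted p-value under 0.05, the threshold named by the study, was passed by 1 member, Mrpl49, which is 1.41% of the family against 19.6% of all tested genes (10.4% in the direction of an increase).

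Summed over the 71 genes, Vector replicates 1, 2 and 3 were at 2019, 1958 and 1994 CPM and the libraries labelled FTO at 2326, 2455 and 2252 CPM. The 3 libraries labelled FTO all lay above the 3 Vector libraries, with means of 1990 ± 30.7 and 2344 ± 102 CPM and a ratio of 1.18. The family thus took 0.199% of the counts in Vector and 0.234% in the libraries labelled FTO. FTO replicate 2 was the highest of the 6. The median deviation of the members from their Vector mean, on the log2 scale, was 0.22, 0.34 and 0.16 in FTO replicates 1, 2 and 3 and between -0.03 and 0.02 in the Vector replicates. Without FTO replicate 2, the ratio of the sums was 1.15 and 37 members rose.

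**Figure D1:**
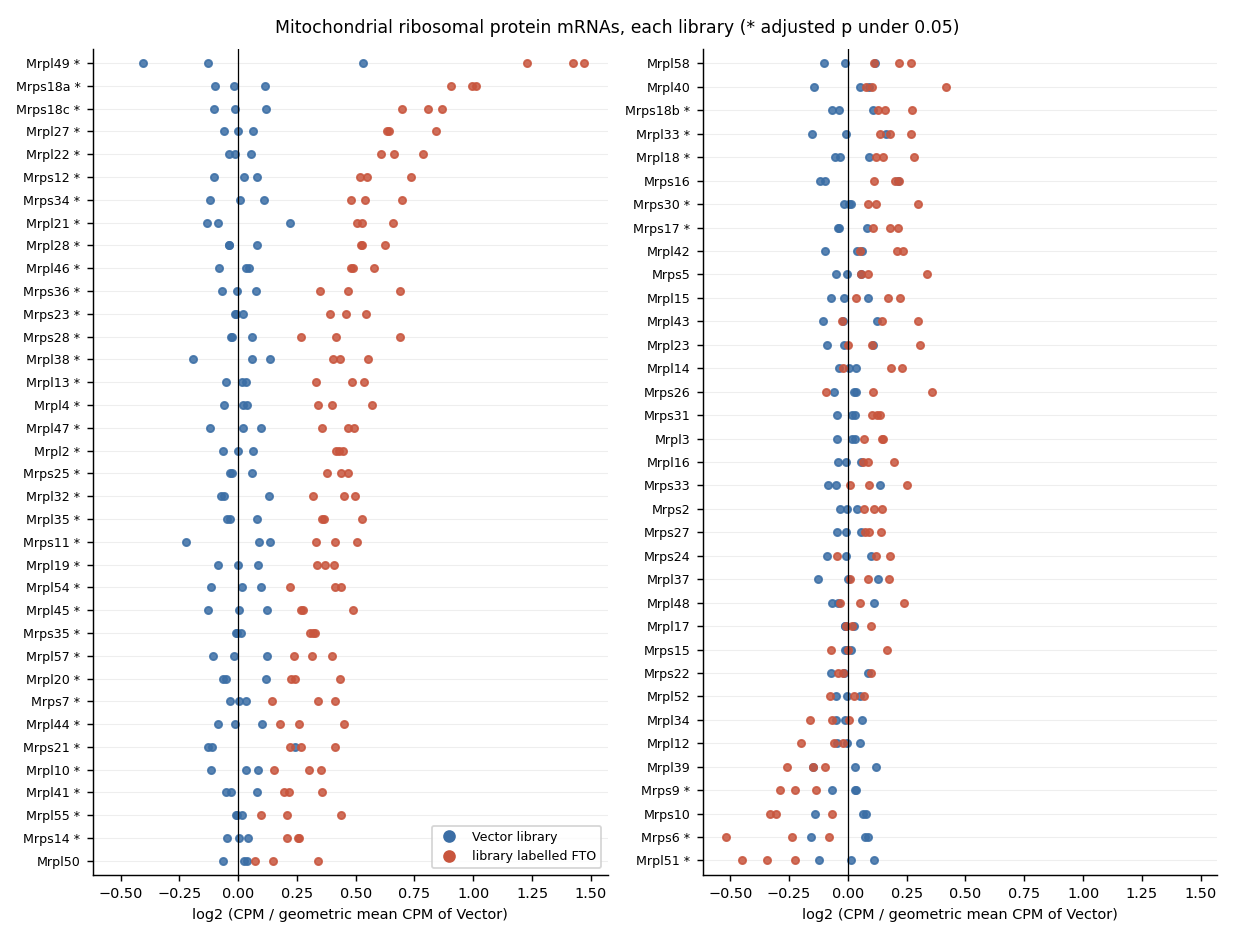
Each line is 1 of the 71 mitochondrial ribosomal protein genes, ordered by fold change over both panels, and the horizontal axis gives the log2 ratio of its CPM to the geometric mean of the 3 Vector libraries, with blue points for Vector libraries and red points for libraries labelled FTO (asterisk: adjusted p under 0.05). Between 56 and 64 of the 71 genes lie above their Vector mean in each library labelled FTO, and at the lower end 6 (Mrpl12, Mrpl39, Mrps9, Mrps10, Mrps6 and Mrpl51) lie below it in all 3.

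In 44 members every library labelled FTO lay above every Vector library, and in Mrpl51 and Mrps9 every one lay below, while the groups overlapped in 25. These are 62.0% and 2.82% of the family, against 35.5% and 34.8% of all tested genes (70.3% in either direction). Over 16 alternatives of tool, scaling, filter, block and left-out library, 32 members rose in each and 2, Mrpl51 and Mrps9, fell in each. In these 16 alternatives, 9 calls were lost at least once. The 16 leave out glmTreat, which called 20 members higher and 0 lower, and scaling to cytosolic ribosomal protein counts. Neither Mrpl51 nor Mrps9 fell when a 1.2-fold change was the null (glmTreat) or when libraries were scaled to cytosolic ribosomal protein counts. The 9 with a lost call among the 16 alternatives were Mrps6, Mrps18b, Mrpl55, Mrpl57, Mrpl33, Mrpl18, Mrps30, Mrps21 and Mrps17.

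The sequence just before the transcription start was compared because many members rose together. Promoters from RefSeq (build GRCr8, 250 bases before to 50 after the first listed start) were matched for 57 of the 71 members. Both strands were searched for letters that the nuclear regulators of mitochondrial genes are known to bind. The letters of NRF1, GCGCA and GCGC separated by any base, were in 8 of the 57 (14.0%), against 6.09% of 19005 protein-coding promoters of the same length. The letters CCGGAAG, the core of the sites of ETS factors such as GABP, were in 18 (31.6%), against 11.2%. The letters AAGATGGCG of YY1 were in 8 (14.0%), against 2.29%. At least 1 of these 3 was in 28 members (49.1%), against 17.6% of all. Their letters could overlap each other. The Sp letters GGGCGG were in 28 (49.1%), against 43.1%, and the E-box CACGTG, to which MYC binds, in 4 (7.02%), against 7.27%. Among the 31 members with a promoter that rose, NRF1, ETS and YY1 letters were in 5, 9 and 3, and among the 26 others in 3, 9 and 5. The E-box was in 4 of the 31 and in none of the 26. A match of letters is a description and not a bound site.

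The 150 bases before the start are shown for 5 members, chosen after their values were seen, with matches to the NRF1 and ETS letters in capitals. Mrps18a, chr9:22367381-22367530 on the minus strand, and Mrpl22, chr10:42845760-42845909 on the plus strand, are among the 6 largest increases, the first with ETS letters and the second with none of the letters searched. The searched promoter of Mrps18a also has 1 match to the YY1 letters, which does not lie wholly within the bases shown. Mrpl45, chr10:82804889-82805038, and Mrpl32, chr17:55260501-55260650, both on the plus strand, rose and carry NRF1 letters. The searched promoter of Mrpl45 has 2 matches to the NRF1 letters, of which 1 lies wholly within the bases shown. Mrps9, chr9:52605528-52605677 on the plus strand, fell and carries no NRF1, ETS or YY1 letters here. All positions are in GRCr8 and the sequences run 5′ to 3′ towards the start.
Mrps18a: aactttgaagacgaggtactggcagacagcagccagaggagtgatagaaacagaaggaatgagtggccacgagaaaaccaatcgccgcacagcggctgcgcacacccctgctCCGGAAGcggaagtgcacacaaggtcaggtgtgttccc
Mrpl22: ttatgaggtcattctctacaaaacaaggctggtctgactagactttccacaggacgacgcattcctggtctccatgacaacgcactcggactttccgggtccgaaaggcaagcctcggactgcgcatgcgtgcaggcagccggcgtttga
Mrpl45: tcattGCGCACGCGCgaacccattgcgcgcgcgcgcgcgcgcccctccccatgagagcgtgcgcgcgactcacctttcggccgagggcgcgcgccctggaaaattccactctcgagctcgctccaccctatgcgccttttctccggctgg
Mrpl32: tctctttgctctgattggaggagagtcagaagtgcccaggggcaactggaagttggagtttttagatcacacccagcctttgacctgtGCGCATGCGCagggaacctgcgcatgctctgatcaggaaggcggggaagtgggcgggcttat
Mrps9: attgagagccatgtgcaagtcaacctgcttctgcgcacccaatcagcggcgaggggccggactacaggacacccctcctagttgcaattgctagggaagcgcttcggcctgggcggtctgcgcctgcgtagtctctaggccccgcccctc

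Many members start near a gene read in the opposite direction. Within 1000 bases of their start, 16 of the 57 (28.1%) had a protein-coding gene starting and diverging on the other strand, against 6.99% of the 19005. In 1 of the 15 pairs both genes were members. Mrpl46 and Mrps11, a large and a small subunit protein, start 234 bases apart, and the 233 bases between them (chr1:142117031-142117263, shown on the minus strand, in the direction of Mrpl46) hold no NRF1, ETS or YY1 letters. The searched promoter of Mrpl46, which extends beyond this stretch, has 1 match to the YY1 letters.
Mrpl46 to Mrps11: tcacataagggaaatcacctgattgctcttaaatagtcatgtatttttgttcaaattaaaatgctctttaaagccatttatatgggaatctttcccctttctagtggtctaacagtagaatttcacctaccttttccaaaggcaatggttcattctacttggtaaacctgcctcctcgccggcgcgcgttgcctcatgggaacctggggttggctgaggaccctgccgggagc

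Mrpl46 was at 12.7, 13.9 and 13.8 CPM in Vector replicates 1 to 3 and at 18.9, 20.1 and 18.8 CPM in those labelled FTO (log2 fold change 0.51, adjusted p = 1.3e-04, edgeR). Mrps11 was at 19.8, 15.5 and 19.2 CPM and at 22.7, 25.7 and 24.01 CPM (log2 fold change 0.41, adjusted p = 1.8e-03, edgeR). Neither gene's groups overlapped, and both rose. In the other pairs the partners did not always move together. Of 14 pairs with both genes tested, Mrpl46 and Mrps11 included, both passed in 6, with the same direction in 3 and opposite directions in 3. Of all tested genes 65.9% passed, 33.2% rising and 32.8% falling. Whether partners agreed more often than unrelated genes was not tested. Mrpl32 rose with Psma2, a proteasome subunit gene (log2 fold changes 0.42 and 0.51), and Mrpl41 with Pnpla7 (0.25 and 0.64). Mrps7 rose while Gga3 fell (0.30 and -0.39), Mrps18b rose while Ppp1r10 fell (0.19 and -0.14), and Mrpl51 fell while Ncapd2, a condensin subunit gene that starts 50 bases away, rose (-0.33 and 0.20). The use of strand in counting is not given in the sources used here, so reads from overlapping parts of such pairs could not be told apart.

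The large subunit forms the peptide bond and holds the tunnel through which the new protein leaves. Of its 44 tested genes, 26 rose (59.1%) and 1 fell (2.27%), against 33.2% and 32.8% of all tested genes. In this subunit 61.4% passed, against 65.9% of all, and 17 genes did not. The median log2 fold change was 0.25. The sum was 1290 ± 25.3 CPM in Vector and 1524 ± 65.1 CPM in the libraries labelled FTO, a ratio of 1.18. Among the 24 with a bacterial counterpart, 16 rose and none fell (median 0.28), and among the 20 specific to mitochondria, 10 rose and 1 fell (median 0.20). Origin here and below follows the systematic names of ribosomal proteins. These class Mrps18a (mL66) and Mrps18b (mS40) as specific to mitochondria, although both belong to the S18 set described below.

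Mrpl49, a mitochondria-specific protein, had the largest change of the family but the fewest reads of its members, with a mean of 65 counts per library. Its CPM was 2.19, 1.81 and 3.46 in Vector and 5.61, 6.65 and 6.42 in the libraries labelled FTO. The groups did not overlap, and the log2 fold change was 1.32 (SE 0.208, adjusted p = 4.9e-05, edgeR). Without Vector replicate 3, the highest of its group, the log2 fold change was 1.63. Mrps18a, whose product sits in the large subunit in spite of its name, was at 19.4, 17.7 and 16.8 CPM and at 36.1, 35.7 and 33.6 CPM. This increase of 0.97 on the log2 scale (SE 0.0790, adjusted p = 3.6e-08) was the largest after that of Mrpl49. The promoter of Mrps18a is the one shown above with ETS letters, and it also holds YY1 letters that are not wholly within the bases shown.

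Mrpl27 is the counterpart of bacterial L27, whose tail reaches towards the site of peptide bond formation. It was at 33.2, 30.5 and 31.8 CPM in Vector and at 49.4, 57.1 and 49.7 CPM in those labelled FTO, a log2 change of 0.71 (adjusted p = 4.5e-07, edgeR). Mrpl22, the counterpart of a protein that lines the exit tunnel, was at 25.3, 27.0 and 25.8 CPM and at 41.2, 44.9 and 39.7 CPM, which gave 0.68 (adjusted p = 5.9e-07). In both, all 3 libraries labelled FTO were higher than all Vector libraries and FTO replicate 2 was the highest. Mrpl45, which anchors the exit side of the ribosome at the inner membrane, rose less, from 41.1 ± 3.56 to 52.2 ± 4.67 CPM (log2 fold change 0.34, adjusted p = 1.2e-03). Mrpl44, a protein related to ribonuclease III, rose from 21.6 ± 1.42 to 26.5 ± 2.64 CPM (0.29, adjusted p = 9.6e-03).

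Members of the stalk, to which translation factors bind, did not move alike. Mrpl10, at the stalk base, rose from 33.5 ± 2.36 to 40.4 ± 2.90 CPM (log2 fold change 0.27, adjusted p = 5.9e-03, edgeR). Mrpl12, the stalk protein itself, was at 50.8 ± 1.68 and 47.6 ± 3.05 CPM, with a log2 fold change of -0.09, overlapping groups and an adjusted p-value of 0.203. The difference between these changes was not tested. Mrpl58, a peptidyl-tRNA hydrolase that frees stalled ribosomes and is built into the large subunit, was at 19.7 ± 1.52 and 22.6 ± 1.23 CPM (log2 fold change 0.19, adjusted p = 0.0602).

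Mrpl51, a mitochondria-specific protein, was the member of either subunit with the largest decrease. It was at 45.5, 41.4 and 48.6 CPM in Vector and at 35.5, 33.0 and 38.6 CPM in the libraries labelled FTO. Every library labelled FTO was below every Vector library, and the log2 fold change was -0.33 (SE 0.0767, adjusted p = 1.3e-03, edgeR).

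Several large subunit genes with many counts differed little. Mrpl17, with the most counts of the family (a mean of 1817 per library), was at 124, 121 and 121 CPM in Vector and at 130, 123 and 121 CPM in the libraries labelled FTO. Its log2 fold change was 0.04, with a 95% interval of the fold from 0.957 to 1.10. Mrpl3, next in counts, was at 57.1 ± 1.62 and 62.0 ± 1.97 CPM (log2 fold change 0.12, adjusted p = 0.0697), with groups that did not overlap, and passed without FTO replicate 3 (adjusted p = 0.0330). Mrpl37 was at 56.5 ± 5.01 and 60.01 ± 3.50 CPM (0.09, adjusted p = 0.283). Mrpl52 was the member nearest 0, at 46.7 ± 1.68 and 46.9 ± 2.33 CPM, with a log2 fold change of 0.01 and an interval of the fold from 0.918 to 1.10. Mrpl47, the member with the second fewest counts, was at 8.05, 8.86 and 9.35 CPM and at 12.3, 12.1 and 11.2 CPM, so the groups were apart (log2 fold change 0.43, adjusted p = 3.3e-03).

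**Figure D2:**
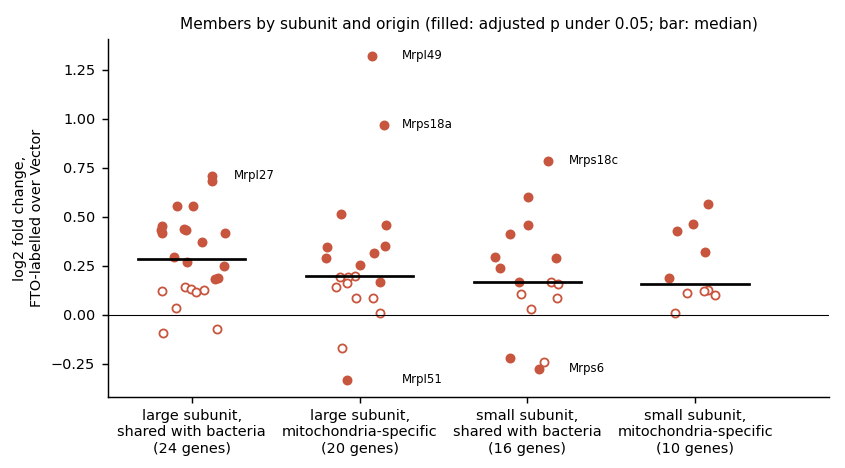
Each point is 1 gene, with its log2 fold change (libraries labelled FTO over Vector) on the vertical axis and its subunit and origin on the horizontal axis, filled where the adjusted p was under 0.05, and the bars are medians. The points lie mostly above 0 in each of the 4 groups, with medians of 0.28, 0.20, 0.17 and 0.16 from left to right.

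The small subunit reads the codons of the mRNA. Of its 26 tested genes, 13 rose (50%) and 2 fell (7.69%), against 33.2% and 32.8% of all tested genes. In this subunit 57.7% passed, against 65.9% of all, and 11 genes did not. The median log2 fold change was 0.17. The sum was 678 ± 5.69 CPM in Vector and 789 ± 34.8 CPM in the libraries labelled FTO, a ratio of 1.16. The ratio of the large to the small subunit sum was 1.90 ± 0.0262 and 1.93 ± 0.0155, with 1.87 to 1.92 in Vector and 1.92 to 1.95 in the libraries labelled FTO. Among the 16 with a bacterial counterpart, 8 rose and 2 fell (median 0.17), and among the 10 specific to mitochondria, 5 rose and none fell (median 0.16).

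Mrps18c, the counterpart of bacterial S18 in the small subunit, was at 14.0, 13.2 and 15.3 CPM in Vector and at 24.7, 25.8 and 22.9 CPM in the libraries labelled FTO. The groups were far apart (log2 fold change 0.79, SE 0.0903, adjusted p = 1.8e-06, edgeR). The third gene of this S18 set, Mrps18b, changed less, from 37.4 ± 2.46 to 42.5 ± 2.29 CPM (0.19, adjusted p = 0.0278), and lost its call in at least 1 alternative. Mrps12, the counterpart of the S12 protein of the decoding site, was at 20.05, 18.4 and 20.8 CPM and at 28.3, 32.9 and 28.8 CPM. Its groups did not overlap, and the log2 fold change was 0.60 (adjusted p = 1.7e-05). Mrps34 and Mrps23, both specific to mitochondria, rose by 0.57 and 0.46 on the log2 scale (adjusted p = 1.4e-05 and 1.0e-05).

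The 2 small subunit genes that fell have bacterial counterparts. Mrps9, the counterpart of S9, whose end touches the tRNA in the P site, was at 34.97, 34.9 and 32.6 CPM in Vector and at 29.2, 31.1 and 28.0 CPM in those labelled FTO, a log2 change of -0.22 (SE 0.0705, adjusted p = 0.0133, edgeR). The groups did not overlap. Mrps6 was at 18.3, 21.4 and 21.6 CPM and at 14.2, 19.3 and 17.3 CPM, which gave a log2 change of -0.28 (adjusted p = 0.0388). Here FTO replicate 2 lay above Vector replicate 1, so the groups overlapped.

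Mrps2, which had the most counts among small subunit genes with a symbol of the family, was at 52.6 ± 1.30 and 56.6 ± 1.51 CPM (log2 fold change 0.11, adjusted p = 0.104, edgeR). Mrps15 and Mrps22 were among the 3 members nearest 0, with log2 fold changes of 0.03 and 0.01 and overlapping groups. Mrps36 carries a symbol of the family but is now known as a component of the oxoglutarate dehydrogenase complex of the citric acid cycle, and it was counted with neither subunit. It was at 22.02, 21.1 and 23.3 CPM and at 28.1, 35.6 and 30.5 CPM, groups without overlap (log2 fold change 0.50, adjusted p = 1.7e-04).

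Other proteins of the mitoribosome carry symbols outside the rule. Of 4 tested, 2 rose (50%, against 33.2% of all tested genes). Ptcd3, a small subunit protein with pentatricopeptide repeats, was at 83.5, 81.2 and 82.3 CPM in Vector and at 119.7, 121.1 and 113.9 CPM in the libraries labelled FTO, with no overlap (log2 fold change 0.52, adjusted p = 1.4e-07, edgeR). Dap3, the GTP-binding protein of the small subunit, was at 68.1, 58.0 and 60.8 CPM and at 73.0, 76.1 and 70.2 CPM, also apart (0.23, adjusted p = 5.3e-03). Chchd1 and Gadd45gip1 did not pass, with log2 fold changes of 0.12 and -0.02. Aurkaip1 was not analysed here.

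Of 24 tested factors that build the mitoribosome, 7 rose, 3 fell and 14 did not pass, with a median log2 fold change of 0.08. The shares that rose (29.2%) and fell (12.5%) were both under those of all tested genes (33.2% and 32.8%). Without FTO replicate 2, 5 fell. Mrm3, an rRNA methyltransferase of the large subunit, was at 8.12, 7.25 and 4.57 CPM and at 11.6, 11.1 and 9.72 CPM, without overlap (0.70, adjusted p = 2.0e-03, edgeR). Rpusd3, a pseudouridine synthase family member, rose from 7.64 ± 0.504 to 11.6 ± 1.67 CPM (0.60, adjusted p = 8.8e-04). Noa1, a GTPase needed for the small subunit, fell from 21.4 ± 1.03 to 15.6 ± 0.156 CPM (-0.45, adjusted p = 2.1e-04). Mrm1, a methyltransferase of the same family as Mrm3, fell from 15.5 ± 0.861 to 12.3 ± 0.481 CPM (-0.33, adjusted p = 7.4e-03).

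Of 17 factors that act in or around mitochondrial translation, 3 rose (17.6%), 2 fell (11.8%) and 12 did not pass, with a median log2 fold change of 0.03. Both shares were under the 33.2% and 32.8% of all tested genes. Slirp, which binds mitochondrial mRNA together with Lrpprc, rose from 4.12 ± 0.251 to 6.23 ± 0.110 CPM (0.60, adjusted p = 2.0e-03, edgeR), whereas Lrpprc fell from 121.9 ± 1.74 to 111.6 ± 4.36 CPM (-0.13, adjusted p = 0.0259). The call for Lrpprc was lost with DESeq2 (adjusted p = 0.0616) and without Vector replicate 2, Vector replicate 3 or FTO replicate 2, with an adjusted p-value of up to 0.0824. Oxa1l, the insertase that receives new proteins at the inner membrane, rose from 65.1 ± 3.55 to 88.8 ± 4.18 CPM (0.45, adjusted p = 6.2e-06). Mrrf, the ribosome recycling factor, fell from 31.6 ± 0.354 to 25.1 ± 1.91 CPM (-0.33, adjusted p = 1.2e-03).

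Of 10 genes for copying and transcribing mtDNA, 3 rose and 2 fell, with a median log2 fold change of 0.02. Neither share was higher than the 33.2% and 32.8% of all tested genes. Polrmt, the mitochondrial RNA polymerase, was at 15.7, 13.1 and 14.0 CPM in Vector and at 7.155, 8.61 and 7.88 CPM in the libraries labelled FTO. It fell in all 3 below every Vector library (-0.86, SE 0.117, adjusted p = 1.2e-05, edgeR). Polg, the catalytic subunit of the mtDNA polymerase, fell from 49.9 ± 2.22 to 34.7 ± 1.46 CPM (-0.52, adjusted p = 3.7e-06). Ssbp1, which coats single-stranded mtDNA, rose from 15.6 ± 0.713 to 24.8 ± 1.89 CPM (0.67, adjusted p = 8.4e-06), and Peo1, the older symbol of the mtDNA helicase Twnk, rose from 17.1 ± 1.30 to 23.3 ± 1.81 CPM (0.44, adjusted p = 5.6e-04). Of 9 nuclear regulators of mitochondrial genes, 1 rose and 1 fell (11.1% each), with a median of -0.03. Both shares were under those of all tested genes. Without FTO replicate 3 the numbers that rose and fell were 2 and 3. Myc rose from 57.4 ± 2.35 to 70.8 ± 1.71 CPM (0.30, adjusted p = 1.7e-04), and Pprc1, a coactivator related to PGC-1α, fell from 84.8 ± 2.22 to 58.5 ± 4.05 CPM (-0.53, adjusted p = 1.1e-06). Nrf1, Gabpa and Yy1, whose letters were searched in the promoters, had log2 fold changes of -0.03, -0.02 and -0.12 and did not pass (adjusted p = 0.712, 0.737 and 0.0835).

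The mRNAs that the mitoribosome translates lay in the other direction. Of the 13 mtDNA-encoded mRNAs, 10 fell (76.9%, against 32.8% of all tested genes), with a median log2 fold change of -0.40. None of the 13 rose (0 also at an unadjusted p under 0.05 and with DESeq2 or limma-voom). Their sum was 50667, 48203 and 50087 CPM in Vector replicates 1 to 3 and 40782, 42493 and 37926 CPM in the libraries labelled FTO. All 3 libraries labelled FTO were below all Vector libraries, with a ratio of 0.814, and the share of the counts was 4.97% and 4.04%. The sum of these mRNAs divided by the sum of the 71 nuclear genes was 24.9 ± 0.283 in Vector and 17.2 ± 0.356 in the libraries labelled FTO, with 24.6 to 25.1 and 16.8 to 17.5 in the single libraries.

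The decrease differed in size between these mRNAs. Mt-nd5, a subunit of complex I, was at 2556, 2487 and 2593 CPM in Vector and at 1265, 1316 and 1310 CPM in the libraries labelled FTO, far apart (log2 fold change -0.97, SE 0.0380, adjusted p = 4.4e-12, edgeR). Mt-nd4, another complex I subunit, was at 424, 319 and 323 CPM and at 204, 230 and 186 CPM (-0.78, adjusted p = 3.0e-06). Its reading frame overlaps that of Mt-nd4l, as that of Mt-atp6 overlaps Mt-atp8, so reads from the shared bases are uncertain. Mt-co1, Mt-nd2 and Mt-atp8 did not pass, with log2 fold changes of -0.07, 0.07 and 0.19. Mt-nd2 was higher in each library labelled FTO than in each Vector library, by a small margin, and without Vector replicate 3 or FTO replicate 3, or scaled to cytosolic ribosomal protein counts, 1 of the 13 rose. The mitochondrial rRNAs were not analysed here.

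**Figure D3:**
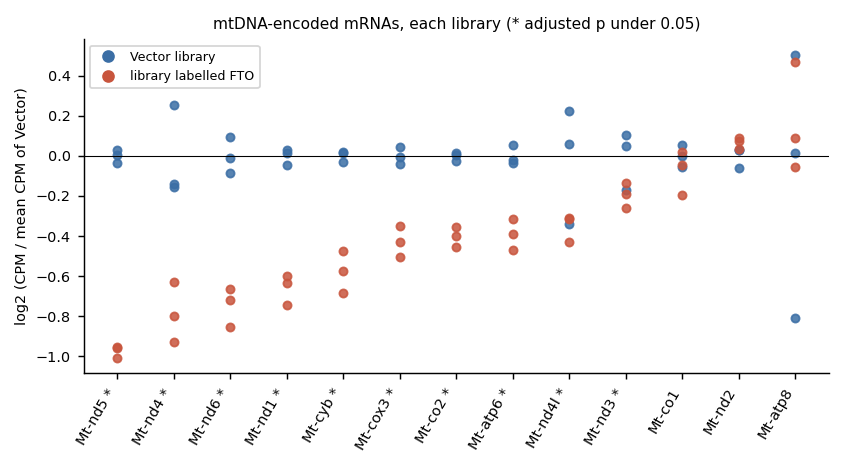
Log2 ratio of CPM to the Vector mean (vertical axis) for each of the 13 mtDNA-encoded mRNAs (horizontal axis, ordered by fold change), with 1 blue point per Vector library and 1 red point per library labelled FTO (asterisk: adjusted p under 0.05). The groups are apart from Mt-nd5 to Mt-atp6 on the left, whereas they overlap in Mt-nd4l, Mt-nd3, Mt-co1 and Mt-atp8.

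The family was set beside the 2 most similar gene groups. Nuclear genes of the respiratory chain and ATP synthase were taken by symbol alone, so not each need encode a subunit. Of the 79, 57 were higher (72.2%) and 3 (Ndufv3, Atp5s and Cox7a2l) lower (3.8%), against 33.2% and 32.8% of all tested genes. Most of the 79 also lay above 0, with a median log2 fold change of 0.29. Their sum rose from 6877 ± 19.5 to 7882 ± 381 CPM, a ratio of 1.15. The cytosolic ribosomal protein genes, which serve the ribosome outside mitochondria, lay the other way. Of 71 tested, 10 rose (14.1%) and 29 fell (40.8%), against 33.2% and 32.8% of all tested genes. Those tested were 71 of 75 symbols, with Vector means from 0.814 CPM (Rps19) to 2319 CPM (Rplp0). Why some of these genes had so few counts was not tested, and reads shared with pseudogenes are uncertain here too. The cytosolic genes had a median of -0.09 and sums of 28003 ± 191 and 25251 ± 1229 CPM, a ratio of 0.902. When libraries were scaled to these genes' own counts, 28 rose and 11 fell and the median turned positive, and without Vector replicate 1 the number that rose was 5. No test was made of the differences between the groups. In each of these sums, and in that of the mtDNA-encoded mRNAs, FTO replicate 2 was the highest and FTO replicate 3 the lowest of the libraries labelled FTO, and what sets these libraries apart was not tested.

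**Figure D4:**
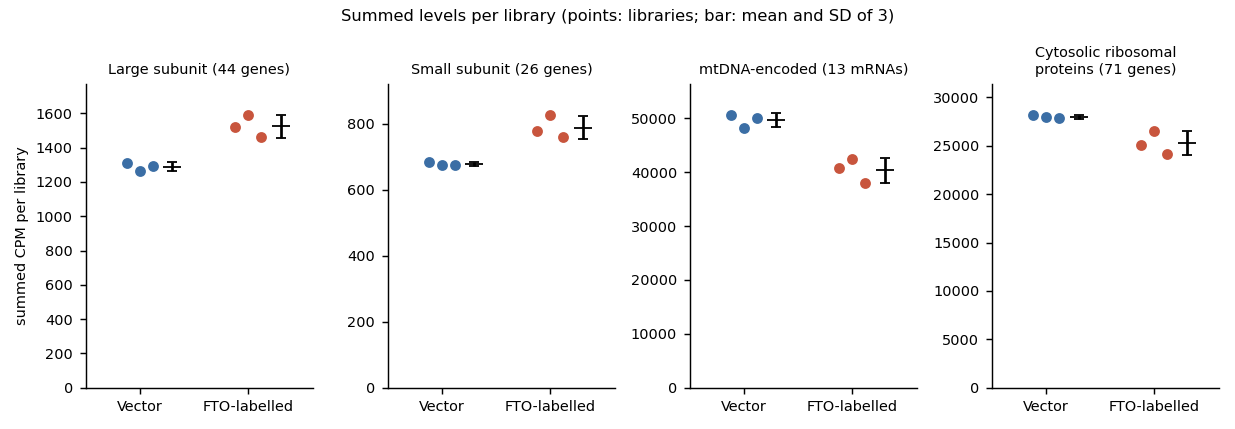
Summed CPM per library (vertical axes, from 0) of the large subunit genes, the small subunit genes, the mtDNA-encoded mRNAs and the cytosolic ribosomal protein genes, with 1 point per library and the mean and SD of 3 beside them. Both subunits are higher in the libraries labelled FTO (ratios 1.18 and 1.16), and the mtDNA-encoded mRNAs and cytosolic ribosomal protein genes are lower (ratios 0.814 and 0.902).

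**Figure D5:**
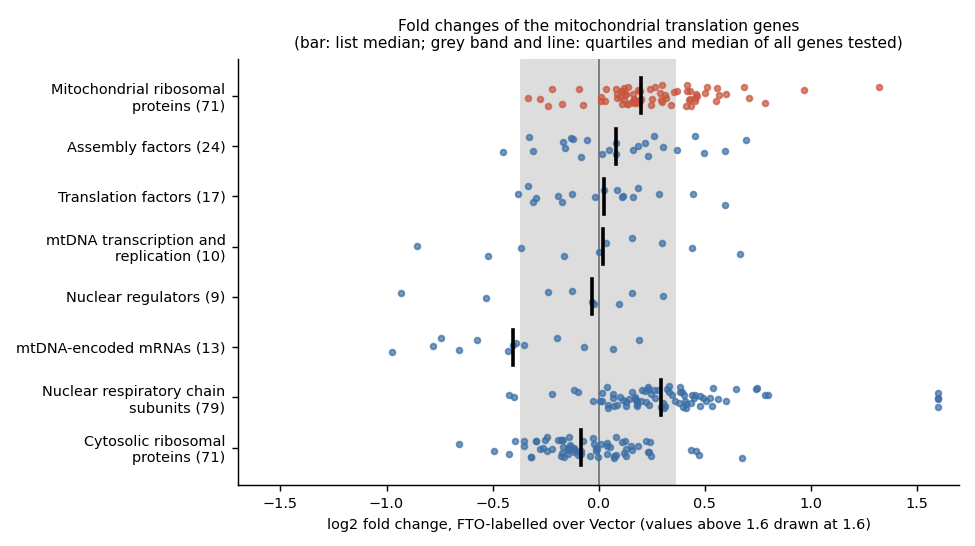
Log2 fold change of each gene (horizontal axis, libraries labelled FTO over Vector) in 8 gene groups, with a bar at each median and a grey band for the quartiles of all tested genes; 4 respiratory chain genes beyond 1.6 are drawn at that limit. The medians of mitochondrial ribosomal protein genes (0.20) and nuclear respiratory chain genes (0.29) lie above 0, that of mtDNA-encoded mRNAs (-0.40) lies below the band, and the assembly and translation factors spread to both sides.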

How the data were processed

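Each library has 1 file of raw read counts by gene symbol, as the authors deposited it, and 0 other per-sample columns were left unused. The submitters' processing notes name Trimmomatic and the build rn6. The aligner, counter and annotation, and whether strand was used, are not given in the sources used here. RefSeq lists 40 pseudogenes with symbols of this family, so reads they share with members are uncertain.

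The genotype label gave each group and the title each replicate number. Genes kept by filterByExpr (minimum count 10) were scaled by TMM and compared, libraries labelled FTO over Vector, by the two-sided quasi-likelihood test of edgeR 4.0.16 in R 4.3.3, with no covariate and Benjamini-Hochberg adjustment over all 12941 genes. Values are TMM-scaled CPM. A count of 3 was worth 0.168 to 0.228 CPM. The procedure was tested on simulated counts. Alternatives were DESeq2 1.42.0, limma-voom (limma 3.58.1), other scalings and filters, the replicate number as a block, glmTreat, and leaving out each library.

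Members and gene lists were chosen with earlier results of these data known. The members named were the 6 largest increases and the 6 largest decreases that passed without overlap (2 qualified), those past the study threshold, the 4 with the most and the 2 with the fewest CPM and the 3 nearest 0, and in the other lists the 2 largest passing changes in each direction. Other members were named after their values were seen. Replicates were compared before averaging, and within-group pairs differed by more than sampling noise (chi-square per degree of freedom 1.58 to 8.38). Promoters came from RefSeq on GRCr8, a build other than that of the counts. They were not used for 14 members, which had no entry in that table.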

Additional observations from a re-analysis of the deposited data

How the results depend on the processing

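The counts of members and of each subunit that passed, higher, lower or in total, stayed within 1.5 times in every alternative run other than those given here. So did the total that passed in each list, both directions together. Lists with few calls moved more in 1 direction. Apart from glmTreat and the cytosolic scaling, the alternatives gave 1 to 4 lower translation factors and 1 to 3 lower nuclear regulators. The main fit gave 2 and 1. Against a 1.2-fold change (glmTreat) fewer genes can pass by construction. It called 20 members, 20 higher and 0 lower, with 13 large subunit genes higher and 0 lower and 6 small subunit genes higher and 0 lower. Of all 12941 genes tested, it called 5668. It also called 5 assembly factors, 2 translation factors, 1 nuclear regulator, 1 other mitoribosome protein, 29 respiratory chain genes and 6 cytosolic ribosomal protein genes. Scaling to the cytosolic ribosomal protein counts, chosen after seeing the data, moved the median of all genes by 0.15 and that of the members to 0.35. The summed ratio was then 1.31, 62 members were higher (22 small subunit) and 0 lower, 1 lay lower without overlap, 2 passed the study threshold, the cytosolic median was 0.0641, Lrpprc was at 0.0250, and Fto, Mrpl17, Mrpl3, Mrpl37, Mrps2 and Mrps15 passed while Mrpl51, Mrps9, Mrm1 and Mrrf did not. Relative to that shift the members' median was as before. Under this scaling 8472 of all 12941 genes were called, in either direction. Upper quartile scaling gave 5 lower members, 2 of the large subunit, and 4 nuclear regulators passing. DESeq2 left 1 lower small subunit gene and no call for Lrpprc. Leaving out 1 library gave 33 to 45 higher members (33 without Vector replicate 3, 45 without FTO replicate 3), 2 to 6 lower without overlap (6 without FTO replicate 2, 4 without Vector replicate 2), 1 to 2 past the study threshold (2 without Vector replicate 1), 1 to 3 lower small and 1 to 2 lower large subunit genes and 2 to 5 nuclear regulators passing (5 without FTO replicate 3). Of all genes tested, 7902 of 13131 were called without Vector replicate 3 and 8719 of 13107 without FTO replicate 3. The causes were not tested. Of members near 0, upper quartile scaling turned Mrpl17, Mrpl52, Mrps15 and Mrps22 to log2 fold changes of -0.0118, -0.0383, -0.0173 and -0.0368, and leaving out 1 library moved them over -0.00269 to 0.0552, -0.0250 to 0.05003, -0.0355 to 0.0794 and -0.0287 to 0.0518. With the replicate number as a block, 38 members were higher and 3 lower. Same-numbered libraries did not deviate together across genes (r = 0.00628, -0.0869 and 0.0440), and those of different numbers had r from -0.131 to 0.122. With 3 libraries per group these values cannot tell whether the numbers mark shared cultures or preparations. The low counts of Mrpl49 limit its precision.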
